A study of Mus musculus with 26 samples.

Results

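The mouse genes described here are 3 genes of chitinase-like proteins (Chil1, Chil3 and Chil4), 2 genes of active chitinases (Chia1 and Chit1) and 4 genes widely used as marks of alternative macrophage activation (Retnla, Arg1, Mrc1 and Pdcd1lg2). They were chosen by name, and a probe belonged to a gene when its RefSeq accession maps to that gene. All 9 genes had 1 probe each, out of 55681 probes and 20660 genes with a symbol on the array. Of the 9, 8 passed the filter on dim probes. Chil4 and Arg1 passed it through exposed groups alone, so that a difference from the controls was in part a condition of their being tested.

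The animals were female MutaMouse mice of about 12 weeks, a transgenic strain with a reporter for counting mutations, although the design text calls them male. There were 5 groups of 5 lungs: NM-401 high, NM-401 low, Mitsui high, Mitsui low and control. NM-401 and Mitsui XNRi-7 are multiwalled carbon nanotubes, suspended in mouse serum and instilled into the trachea at weekly intervals for 4 doses, at 128 µg/mouse (high) or 42.7 µg/mouse (low). The labels do not say whether these amounts are per instillation or in total. Lungs were taken 56 days after the last dose. The labels disagree on the controls, which one text calls vehicle-treated and another describes as gavaged with olive oil, so exposure to serum and instillation may also differ between the groups. RNA came from random sections of whole lung, in which fewer cells of a type and less RNA per cell cannot be told apart. Each animal's RNA was labelled with Cy5 and hybridised against a universal mouse reference RNA labelled with Cy3, and each value below is a log2 ratio of Cy5 over Cy3 unless another quantity is named. There were 26 arrays on 4 slides, since Mitsui low animal 5 was hybridised on 2 arrays, which were averaged. Cy5 was well above background for 45.8% to 62.1% of probes per array, and the number of arrays limits the precision. Cy3 was well above background on 1 of 26 arrays for Arg1, 2 for Chil4, 13 for Chia1 and 15 for Mrc1. The ratios of these genes therefore rest on a reference signal near background, and Cy5 alone is not a separate measure of them. NM-401 high had no array on slide 2. The labels do not name a cage or litter, so p-values measure the spread between these animals.

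Chitinases cut chitin, a polymer of fungi, insects and worms, and chitinase-like proteins bind sugar polymers without cutting them. In mice the cytokines IL-4 and IL-13 act through the receptor chain Il4ra and the transcription factor Stat6 to raise Retnla, Arg1, Chil3, Chil4, Mrc1 and Pdcd1lg2 in macrophages, a state called alternative activation. Several of these genes are also made outside macrophages in the lung, with Retnla and Chia1 known from airway epithelium.

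In exposed lungs 3 of the genes rose in all 4 exposed groups: Retnla, which encodes the secreted protein RELM-alpha, Arg1, which encodes the arginine-cleaving enzyme arginase 1, and Chil1, which encodes the chitinase-like protein BRP-39. The mannose receptor gene Mrc1 was called higher by the ratio in 3 groups, and Chil4 and Pdcd1lg2 in NM-401 high alone of the 4 tests. Chil3 and Chia1 passed the test in none of the 4 comparisons. Arg1 and Chil4 passed the filter on dim probes through exposed groups alone, so their calls were in part a condition of their being tested. With limma and an adjusted p under 0.05, 6 of the 8 tested members were called in NM-401 high against control, all higher, where 34.8% of 22950 features were called and 18.4% were called higher. In NM-401 low 4 of 8 were called, against 16.9% of features called and 8.95% called higher. In Mitsui high 3 of 8 were called, against 23.7% and 12.7%, and in Mitsui low 4 of 8, against 20.9% and 10.6%. The median difference of the 8 members was 0.64 in NM-401 high, 0.37 in NM-401 low, 0.45 in Mitsui high and 0.69 in Mitsui low, while the median of all features was -0.00 in each. All 4 comparisons use the same 5 control lungs.

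**Figure D1:**
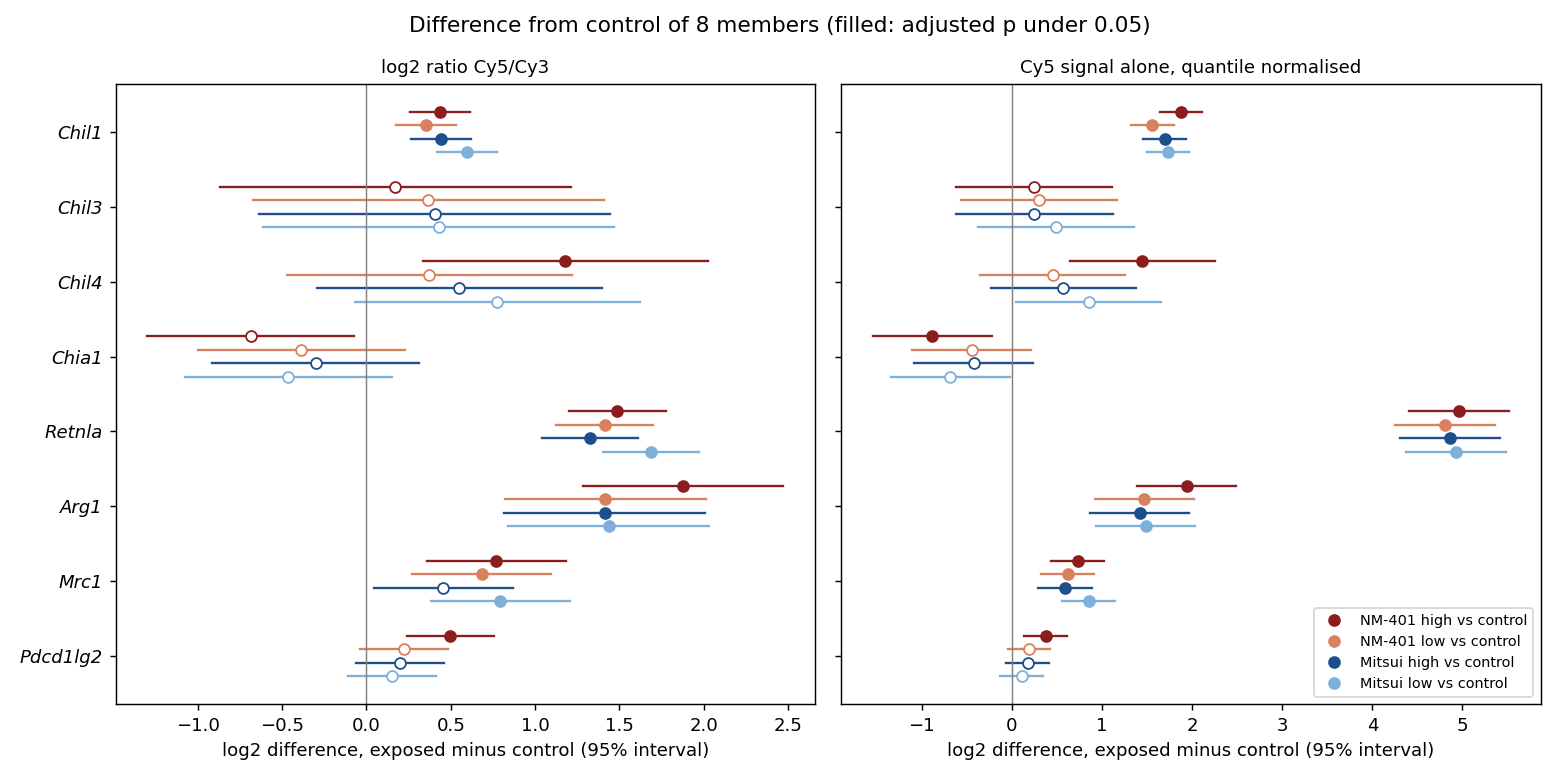
Difference from control on the log2 scale with 95% intervals for 8 members in NM-401 high, NM-401 low, Mitsui high and Mitsui low, from the log2 ratio (left) and from the Cy5 signal alone (right); filled points have an adjusted p under 0.05. Retnla lies at 1.33 to 1.69 on the left and at 4.80 to 4.96 on the right, and Chil1 at 0.35 to 0.60 on the left and 1.56 to 1.88 on the right, while Arg1 and Mrc1 lie at similar values in both. Cy3 was well above background on 1 of 26 arrays for Arg1 and 15 for Mrc1, so for these genes the 2 panels are not separate measures.

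Retnla had log2 ratios of 5.94, 6.55, 5.80, 5.90 and 6.15 in NM-401 high lungs and 6.10, 6.15, 5.82, 5.73 and 6.16 in NM-401 low lungs. They were 5.67, 6.18, 5.96, 5.88 and 5.84 in Mitsui high lungs and 6.44, 6.25, 6.64, 6.06 and 5.94 in Mitsui low lungs, against 4.36, 4.73, 4.52, 4.64 and 4.64 in control lungs. All 20 exposed lungs lay above all 5 controls. RELM-alpha is a small cysteine-rich secreted protein that marks type 2 inflammation in mouse lung. The difference from control was 1.49 ± 0.14 (SE) in NM-401 high (adjusted p = 2.44e-08), 1.41 ± 0.14 in NM-401 low (4.63e-07), 1.33 ± 0.14 in Mitsui high (6.32e-07) and 1.69 ± 0.14 in Mitsui low (1.92e-08), all by limma with n = 5 per group. Within slides it was 1.39 to 1.68, 1.18 to 1.64, 1.04 to 1.54 and 1.33 to 2.04 in the same 4 groups.

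The Retnla ratio changed less than the lung channel did, and the reference channel moved in the same direction. The Cy5 spot signal of Retnla, before normalisation, was 56064 to 316043 (median 123049.5) in the 20 exposed lungs and 2744.5 to 6401 (median 4087) in the 5 controls. The Cy3 signal, the channel in which the reference RNA was labelled, was 1325.5 to 4545 (median 2645.75) on arrays of exposed lungs and 110 to 181 (median 149.5) on arrays of controls. Neither channel overlapped between exposed and control lungs.

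With the Cy5 signal alone, quantile normalised, Retnla was 31.1-fold higher in NM-401 high than in control (95% interval 21.2 to 45.7, adjusted p = 1.35e-11 by limma), 27.9-fold in NM-401 low (19.0 to 41.0), 29.0-fold in Mitsui high (19.7 to 42.6) and 30.4-fold in Mitsui low (20.7 to 44.7). By this measure Retnla ranked 4, 2, 3 and 2 among the rises of all 22950 features in these 4 groups, and by the ratio it ranked 325, 165, 218 and 95. The Cy3 signal of Retnla was 4.02 ± 0.22 higher on the log2 scale in NM-401 high, 3.95 ± 0.22 in NM-401 low, 4.09 ± 0.22 in Mitsui high and 3.92 ± 0.22 in Mitsui low. In size it was the first of all 22950 features in each comparison, where 0.536%, 0.109%, 0.192% and 0.174% of features were called on Cy3 alone. All Cy3 signals called higher also had a positive Cy5 difference, called or not (78 of 78 features in NM-401 high, 23 of 23, 34 of 34 and 25 of 25 in the other groups). Of the Cy3 signals called lower, 41 of 45 in NM-401 high and 2 of 2, 10 of 10 and 15 of 15 in the other groups had a negative Cy5 difference, called or not. The Cy5 analysis was added after the signals had been seen, and what moved the Cy3 signal was not tested.

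**Figure D2:**
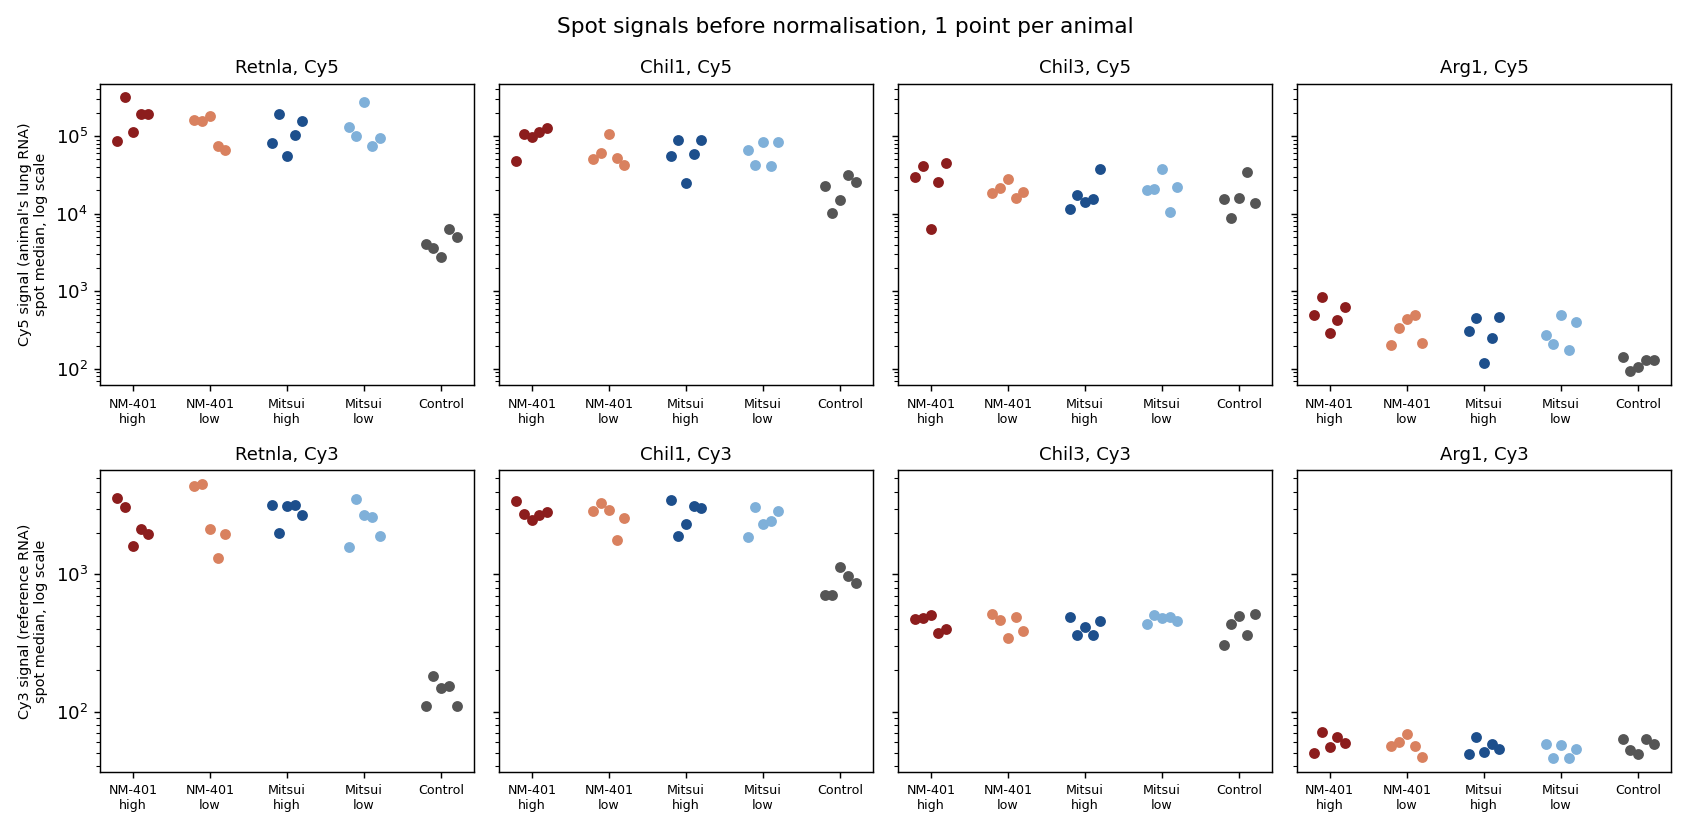
Cy5 (top row) and Cy3 (bottom row) spot signals before normalisation, on log axes, 1 point per animal, for Retnla, Chil1, Chil3 and Arg1 in NM-401 high, NM-401 low, Mitsui high, Mitsui low and control. For Retnla the Cy3 signal is 1325.5 to 4545 on arrays of exposed lungs and 110 to 181 on arrays of controls; for Chil3 and Arg1 the groups overlap in Cy3.

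The promoter of Retnla is shown because this gene had the largest rise in Cy5 among the members. The 250 bases before the RefSeq start (GRCm38.p6, chr16:48842359-48842608, plus strand) are printed with 2 motif matches in capitals. The first is the spaced palindrome TTCNNNNGAA, the form bound by Stat6, at 145 to 136 bases before the start, and the second is TATAAA at 30 to 25 bases before it.
Retnla: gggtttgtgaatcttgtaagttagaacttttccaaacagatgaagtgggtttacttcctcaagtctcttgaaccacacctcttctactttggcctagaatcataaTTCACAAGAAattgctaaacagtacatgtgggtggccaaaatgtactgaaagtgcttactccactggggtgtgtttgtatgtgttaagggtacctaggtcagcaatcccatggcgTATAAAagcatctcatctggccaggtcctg
Both strands were searched, and the 2 motifs do not overlap. Windows of this length were at hand for 8 of the 9 members, all but Arg1. TTCNNNNGAA was found in 2 of the 8, Retnla and Pdcd1lg2, and in 5.85% of 32851 such windows of all genes. TATAAA was found in 3 of the 8 (Retnla, Chil4 and Chia1) and in 12.4% of all windows. A match describes the letters and does not show binding.

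Pdcd1lg2 carries its match at 82 to 73 bases before the start, in the window chr19:29410669-29410918 on the plus strand of GRCm38.p6, in capitals.
Pdcd1lg2: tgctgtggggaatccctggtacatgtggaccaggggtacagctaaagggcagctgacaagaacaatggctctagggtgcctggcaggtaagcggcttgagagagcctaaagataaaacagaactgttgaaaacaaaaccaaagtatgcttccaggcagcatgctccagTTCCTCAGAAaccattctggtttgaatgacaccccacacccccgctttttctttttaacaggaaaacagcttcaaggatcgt

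Chil1 had log2 ratios of 5.04, 5.02, 4.97, 4.76 and 5.03 in NM-401 high lungs and 4.84, 5.06, 4.57, 4.80 and 5.13 in NM-401 low lungs. They were 4.92, 5.06, 5.03, 5.02 and 4.82 in Mitsui high lungs and 5.14, 5.10, 4.99, 5.17 and 5.22 in Mitsui low lungs, against 4.49, 4.61, 4.58, 4.59 and 4.37 in control lungs. Every exposed lung lay above the 5 controls except NM-401 low animal 3, at 4.57. BRP-39, called YKL-40 in humans, is a secreted lectin without chitinase activity. The difference was 0.44 ± 0.09 (SE) in NM-401 high, 0.35 ± 0.09 in NM-401 low, 0.44 ± 0.09 in Mitsui high and 0.60 ± 0.09 in Mitsui low, with limma adjusted p of 0.000305, 0.00599, 0.000554 and 3.07e-05 and n = 5 per group. Within slides it was 0.30 to 0.57, -0.02 to 0.54, 0.37 to 0.47 and 0.57 to 0.64 in the same 4 groups, and -0.02 was the value of NM-401 low on slide 4.

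As for Retnla, both channels of Chil1 were higher with exposure. Its Cy5 signal was 24582 to 126968 in exposed and 10151 to 31869 in control lungs, and its Cy3 signal was 1772 to 3490.5 in exposed and 706 to 1127 in control lungs, with no overlap in Cy3. With Cy5 alone Chil1 was 3.68-fold higher in NM-401 high (95% interval 3.12 to 4.33), 2.94-fold in NM-401 low (2.50 to 3.47), 3.24-fold in Mitsui high (2.75 to 3.81) and 3.32-fold in Mitsui low (2.82 to 3.91). Its Cy3 signal rose by 1.77 ± 0.13, 1.49 ± 0.13, 1.54 ± 0.13 and 1.49 ± 0.13 on the log2 scale in the same order, with the largest limma adjusted p in NM-401 low and the smallest, 1.29e-08, in NM-401 high. The other 6 tested members were not called on Cy3 in any of the 4 exposures. Alveolar type 2 cells are the surfactant-making epithelial cells of the lung. Of 9 measured markers of these cells 5 were called higher in NM-401 high and none lower, against 18.4% of all features called higher. The counts were 4 in NM-401 low, 5 in Mitsui high and 6 in Mitsui low, against 8.95%, 12.7% and 10.6%, again with none lower. The lowest mean ratio of this list in an exposed lung was 5.79 and the highest 6.22, against 5.53 to 5.76 in control lungs, and their part in the Chil1 result was not tested.

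Chil3 and Chil4 encode the chitinase-like proteins Ym1 and Ym2, which form crystals in inflamed mouse airways. They lie side by side on chromosome 3, between Chia1 and Chil6, and their promoters are shown because the 2 genes are near copies. In the windows chr3:106167565-106167814 (Chil3) and chr3:106219480-106219729 (Chil4), both on the minus strand of GRCm38.p6, 201 of 223 aligned positions were identical (90.1%), 20 were substituted and 2 had a gap. Capitals mark aligned bases that differ, and the first 28 bases of Chil3 and the last 28 of Chil4 have no partner in the other window because the annotated starts are offset.
Chil3: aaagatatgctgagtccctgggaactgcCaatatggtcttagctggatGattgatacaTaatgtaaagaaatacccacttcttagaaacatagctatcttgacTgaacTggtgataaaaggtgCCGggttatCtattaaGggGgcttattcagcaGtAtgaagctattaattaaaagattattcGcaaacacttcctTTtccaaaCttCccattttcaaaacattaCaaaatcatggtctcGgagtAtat
Chil4: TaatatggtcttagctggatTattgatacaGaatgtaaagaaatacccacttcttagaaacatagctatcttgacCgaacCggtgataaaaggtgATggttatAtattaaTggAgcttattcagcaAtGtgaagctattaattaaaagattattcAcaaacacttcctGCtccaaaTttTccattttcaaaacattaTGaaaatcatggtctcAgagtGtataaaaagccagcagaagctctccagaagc
Both windows hold the palindrome TTCNNNGAA in a stretch that is the same in the 2 genes, at 172 to 164 bases before the start in Chil3 and 200 to 192 in Chil4. It was found in 2 of the 8 members' windows and in 7.02% of all windows. Whether RNA of one gene binds the probe of the other was not tested, and each value below is that of a probe.

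Chil3 had log2 ratios of 6.85, 5.85, 2.91, 5.10 and 6.03 in NM-401 high lungs and 5.54, 6.01, 5.37, 4.64 and 6.17 in NM-401 low lungs. They were 5.06, 4.81, 6.33, 5.78 and 5.94 in Mitsui high lungs and 5.25, 6.29, 5.83, 5.14 and 5.53 in Mitsui low lungs, against 5.02, 5.03, 5.72, 6.01 and 4.12 in control lungs. The groups overlap throughout, and NM-401 high animal 3 is the lowest of all 25 lungs while animal 1 of the same group is the highest. The difference from control was 0.17 (95% interval -0.87 to 1.21) in NM-401 high, 0.37 (-0.67 to 1.41) in NM-401 low, 0.41 (-0.63 to 1.45) in Mitsui high and 0.43 (-0.61 to 1.47) in Mitsui low, with adjusted p from 0.61 to 0.83 by limma. Each interval holds both falls and rises. Without control animal 5 the NM-401 high difference was -0.09, without NM-401 high animal 1 it was -0.20, and without NM-401 high animal 3 it was 0.78 (adjusted p = 0.14).

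Chil4 was well above background in 5 of 5 NM-401 high, 4 of 5 NM-401 low, 4 of 5 Mitsui high and 4 of 5 Mitsui low lungs, against 1 of 5 control lungs. Its ratios were 1.17, 3.02, -0.13, 1.75 and 1.11 in NM-401 high lungs and 1.13, 0.92, 0.33, 0.04 and 0.48 in NM-401 low lungs. They were 0.28, 0.55, 0.76, 0.46 and 1.74 in Mitsui high lungs and 2.22, 0.61, 1.32, 0.25 and 0.50 in Mitsui low lungs, against 0.13, 0.19, 0.19, 0.27 and 0.25 in control lungs. The exposed groups spread far more widely than the controls, and in NM-401 high 4 of 5 lungs lay above all controls in ratio and animal 3 below them. Before normalisation, the Cy5 signal of animal 3 was 166.5, above the 91 to 113 of control lungs. Its Cy3 signal was 105, the highest of the exposed lungs, against 52 to 60 on control arrays. The low ratio of animal 3 therefore does not show less Chil4 RNA than in controls, and what raised its Cy3 signal was not tested. The difference was 1.18 ± 0.41 (SE) in NM-401 high (adjusted p = 0.027), 0.37 ± 0.41 in NM-401 low (0.60), 0.55 ± 0.41 in Mitsui high (0.37) and 0.78 ± 0.41 in Mitsui low (0.20) by limma, n = 5 per group. Without NM-401 high animal 2 the first value was 0.77 (adjusted p = 0.11) and without animal 4 it was 1.09 (0.061). It also missed the threshold with Feature Extraction ratios (2.21, adjusted p = 0.073), with array column as a block (0.89, 0.21) and with the 2 groups fitted alone (1.18, 0.054).

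Chia1 encodes acidic mammalian chitinase, an active chitinase of airway and stomach. Its log2 ratios were 6.50, 5.92, 4.21, 4.96 and 5.88 in NM-401 high lungs and 6.03, 6.02, 5.91, 5.77 and 5.23 in NM-401 low lungs. They were 5.65, 5.86, 5.95, 5.86 and 6.06 in Mitsui high lungs and 5.84, 5.90, 6.17, 5.15 and 5.51 in Mitsui low lungs, against 6.27, 5.65, 6.26, 6.80 and 5.91 in control lungs. No exposed lung lay above the highest control, and all exposed groups overlapped the controls. The difference was -0.69 (95% interval -1.30 to -0.07, adjusted p = 0.078) in NM-401 high, -0.39 ± 0.30 (SE, adjusted p = 0.43) in NM-401 low, -0.30 ± 0.30 (0.51) in Mitsui high and -0.46 ± 0.30 (0.30) in Mitsui low by limma. With Cy5 alone the NM-401 high value was -0.88 (adjusted p = 0.033), which made 7 of 8 members called there, where 35.7% of features were called. On Cy5 alone 4 of 8 were called in NM-401 low, Mitsui high and Mitsui low, where 18.7%, 25.7% and 23.2% of features were. Without NM-401 high animal 1 the ratio's difference was -0.94 (adjusted p = 0.012), without control animal 2 it was -0.82 (0.048), and without NM-401 high animal 3 it was -0.36 (0.30). It was called lower in the authors' values (-0.77, adjusted p = 0.048) and with array weights (-0.80, 0.030), and was -0.03 with Feature Extraction ratios. Within slides it was -1.02, 0.24 and -1.38. Scgb1a1, the club cell secretoglobin gene and a marker of the airway cells that make Chia1, had -0.39 ± 0.23 in NM-401 high (adjusted p = 0.20). Of the 6 measured club cell markers 3 were higher and 1 lower there, with a median of 0.50. Over all features 18.4% were called higher and 34.8% in either direction. Krt15 of this list was well above background in 3 of 5 controls and passed the filter through exposed groups alone. The part of club cells in the Chia1 values was not tested.

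Chia1 and Chil3, neighbours on chromosome 3, varied together among lungs. After each group's mean was taken off, Pearson's r was 0.75 over 25 animals (permutation p = 0.0017, adjusted p = 0.048 over 28 pairs of members) and Spearman's rho was 0.64 (permutation p = 0.0028, adjusted p = 0.052). Without NM-401 high animals 3 and 1, which lay farthest out, r was 0.48, so that much of the relation rests on these 2 lungs. Within groups r was 0.97 in NM-401 high, -0.30 in NM-401 low, 0.65 in Mitsui high and 0.63 in Mitsui low, against 0.72 in control. Within slides it was 0.96 (8 animals), 0.73 (6), 0.85 (5) and 0.73 (5). No other of the 28 pairs had an adjusted p under 0.05, but some pairs on different chromosomes came close to these values. Chil4 and Retnla had r = 0.65 (permutation test, adjusted p = 0.070) and rho = 0.65 (adjusted p = 0.052). Chia1 had r = -0.66 with Pdcd1lg2 and 0.59 with Arg1 (permutation test, adjusted p = 0.070 for each). Whether being neighbours matters was not tested. Chil3 and Chil4, for all their likeness in sequence, had r = 0.41 (permutation p = 0.19, adjusted p = 0.35), rho = 0.27 and r = 0.22 without NM-401 high animals 3 and 1.

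**Figure D3:**
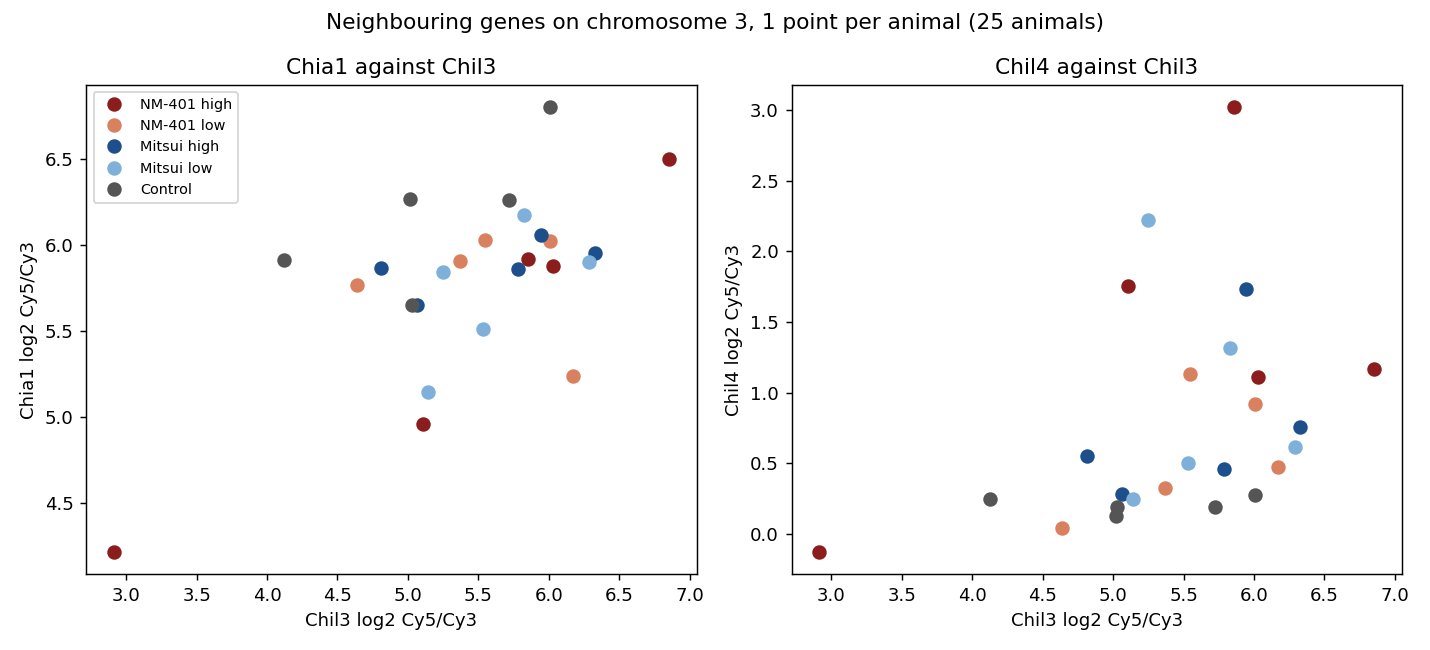
Log2 ratio of Chia1 (left) and Chil4 (right) against that of Chil3, 1 point per animal, 25 animals in 5 groups. NM-401 high animal 3 is the lowest point in both panels, with 2.91 for Chil3, 4.21 for Chia1 and -0.13 for Chil4. Its Chil4 spot had a Cy3 signal of 105, against 52 to 60 in controls, and a Cy5 signal of 166.5, above all controls.

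Chit1 encodes chitotriosidase, the other active chitinase, and neighbours Chil1 on chromosome 1. Its probe was not well above background in any of the 25 lungs, with Cy5 signals of 71 to 89 in all groups, so no difference is given.

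Arg1 had log2 ratios of 3.07, 2.74, 1.50, 1.58 and 2.51 in NM-401 high lungs and 1.41, 2.18, 1.72, 2.37 and 1.41 in NM-401 low lungs. They were 2.34, 1.89, 0.79, 1.71 and 2.33 in Mitsui high lungs and 1.54, 1.78, 2.24, 1.51 and 2.11 in Mitsui low lungs, against 0.37, 0.25, 0.33, 0.56 and 0.48 in control lungs. All 20 exposed lungs lay above all controls. The probe was well above background in 20 of 20 exposed and 3 of 5 control lungs. Arg1 thus passed the filter through exposed groups alone, so that a difference from controls was in part a condition of its being tested. Arginase 1 turns arginine into ornithine and urea and competes with nitric oxide synthase for arginine. The difference was 1.88 ± 0.29 (SE, adjusted p = 1.77e-05) in NM-401 high, 1.42 ± 0.29 (0.00156) in NM-401 low, 1.41 ± 0.29 (0.000915) in Mitsui high and 1.44 ± 0.29 (0.000897) in Mitsui low by limma. Within slides it was 1.48 to 2.73, 1.07 to 1.94, 0.46 to 1.90 and 1.26 to 1.61 in the same 4 groups. Its Cy3 signal was 46 to 71.5 on arrays of exposed lungs and 49 to 63 on arrays of controls, and Cy5 alone gave log2 differences of 1.94, 1.47, 1.42 and 1.49. Cy3 was well above background on 1 of 26 arrays for Arg1, so Cy5 alone is not a separate measure from the ratio here.

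Around arginase, 11 of 17 measured genes of arginine and polyamine metabolism rose in NM-401 high and none fell, with a list median of 0.43, where 18.4% of all features were called higher. In NM-401 low, Mitsui high and Mitsui low 5 of 17 rose in each and none fell, against 8.95%, 12.7% and 10.6% of all features called higher. Slc7a2 of this list passed the filter through exposed groups alone, with 3 of 5 controls well above background. Arg2, the mitochondrial arginase, rose by 1.17 ± 0.20, 0.93 ± 0.20, 0.76 ± 0.20 and 0.90 ± 0.20 in NM-401 high, NM-401 low, Mitsui high and Mitsui low. Nos2, the inducible nitric oxide synthase, rose by 0.63 ± 0.17 in NM-401 high and 0.68 ± 0.17 in Mitsui high, and its values of 0.41 ± 0.17 in NM-401 low and 0.34 ± 0.17 in Mitsui low were not called. Ass1, which rebuilds arginine from citrulline, had 0.82 ± 0.19 and Gatm, which starts creatine synthesis from arginine, 1.20 ± 0.36 in NM-401 high.

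Mrc1 had log2 ratios of 6.05, 5.58, 4.83, 5.31 and 5.27 in NM-401 high lungs and 5.40, 5.93, 5.37, 4.84 and 5.05 in NM-401 low lungs. They were 4.59, 5.40, 4.83, 5.46 and 5.18 in Mitsui high lungs and 5.10, 5.62, 5.39, 5.51 and 5.53 in Mitsui low lungs, against 4.44, 4.55, 4.67, 4.69 and 4.83 in control lungs. NM-401 low and Mitsui low lay wholly above the controls, and 1 lung of NM-401 high and 1 of Mitsui high did not. The mannose receptor takes up mannose-bearing proteins and marks alveolar and interstitial macrophages. The difference was 0.77 ± 0.20 (SE, adjusted p = 0.0038) in NM-401 high, 0.68 ± 0.20 (0.020) in NM-401 low and 0.79 ± 0.20 (0.0057) in Mitsui low by limma, and 0.46 ± 0.20 (0.10) in Mitsui high was not called. With Cy5 alone Mitsui high gave 0.59 ± 0.14 (adjusted p = 0.0037). Within slides it was 0.57 to 1.38, 0.21 to 1.11, 0.16 to 0.71 and 0.61 to 0.95 in NM-401 high, NM-401 low, Mitsui high and Mitsui low. With Feature Extraction ratios Mitsui low gave 0.73 (adjusted p = 0.12). Without NM-401 low animal 2 that group's difference was 0.53 (adjusted p = 0.074), and without Mitsui high animal 1 that group's was 0.58 (0.044). Mitsui high animal 1, at 4.59, had a Cy3 signal of 150, the highest of the exposed lungs, against 53 to 79 on control arrays. Its Cy5 signal was 3097, against 1335 to 3737 in control lungs. What raised this Cy3 signal was not tested.

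Pdcd1lg2 encodes PD-L2, a ligand of the T cell receptor PD-1. Its ratios were 0.02, 0.18, 0.75, 0.35 and 0.62 in NM-401 high lungs and 0.07, 0.09, 0.30, -0.00 and 0.08 in NM-401 low lungs. They were 0.10, -0.03, 0.23, -0.03 and 0.15 in Mitsui high lungs and -0.22, 0.11, -0.10, 0.31 and 0.06 in Mitsui low lungs, against -0.20, 0.23, -0.12, -0.41 and -0.09 in control lungs. All groups overlapped the controls. The probe was dim, with Cy5 signals of 110 to 253 in exposed and 107 to 148.5 in control lungs. The difference was 0.50 ± 0.13 (SE, adjusted p = 0.0030) in NM-401 high and 0.22 ± 0.13 (0.25), 0.20 ± 0.13 (0.27) and 0.15 ± 0.13 (0.44) in NM-401 low, Mitsui high and Mitsui low by limma. With Cy5 alone scaled to its 75th percentile the NM-401 high value was 0.32 (adjusted p = 0.26). The receptor gene Pdcd1, well above background in all 20 exposed lungs and 3 of 5 controls, rose by 1.42 ± 0.23, 1.00 ± 0.23, 1.02 ± 0.23 and 1.13 ± 0.23 in NM-401 high, NM-401 low, Mitsui high and Mitsui low. Pdcd1 thus passed the filter through exposed groups alone. Cd274, which encodes the other ligand PD-L1, rose by 0.83 ± 0.17, 0.58 ± 0.17 and 0.49 ± 0.17 in NM-401 high, NM-401 low and Mitsui high, and had 0.41 ± 0.17 (adjusted p = 0.096) in Mitsui low.

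**Figure D4:**
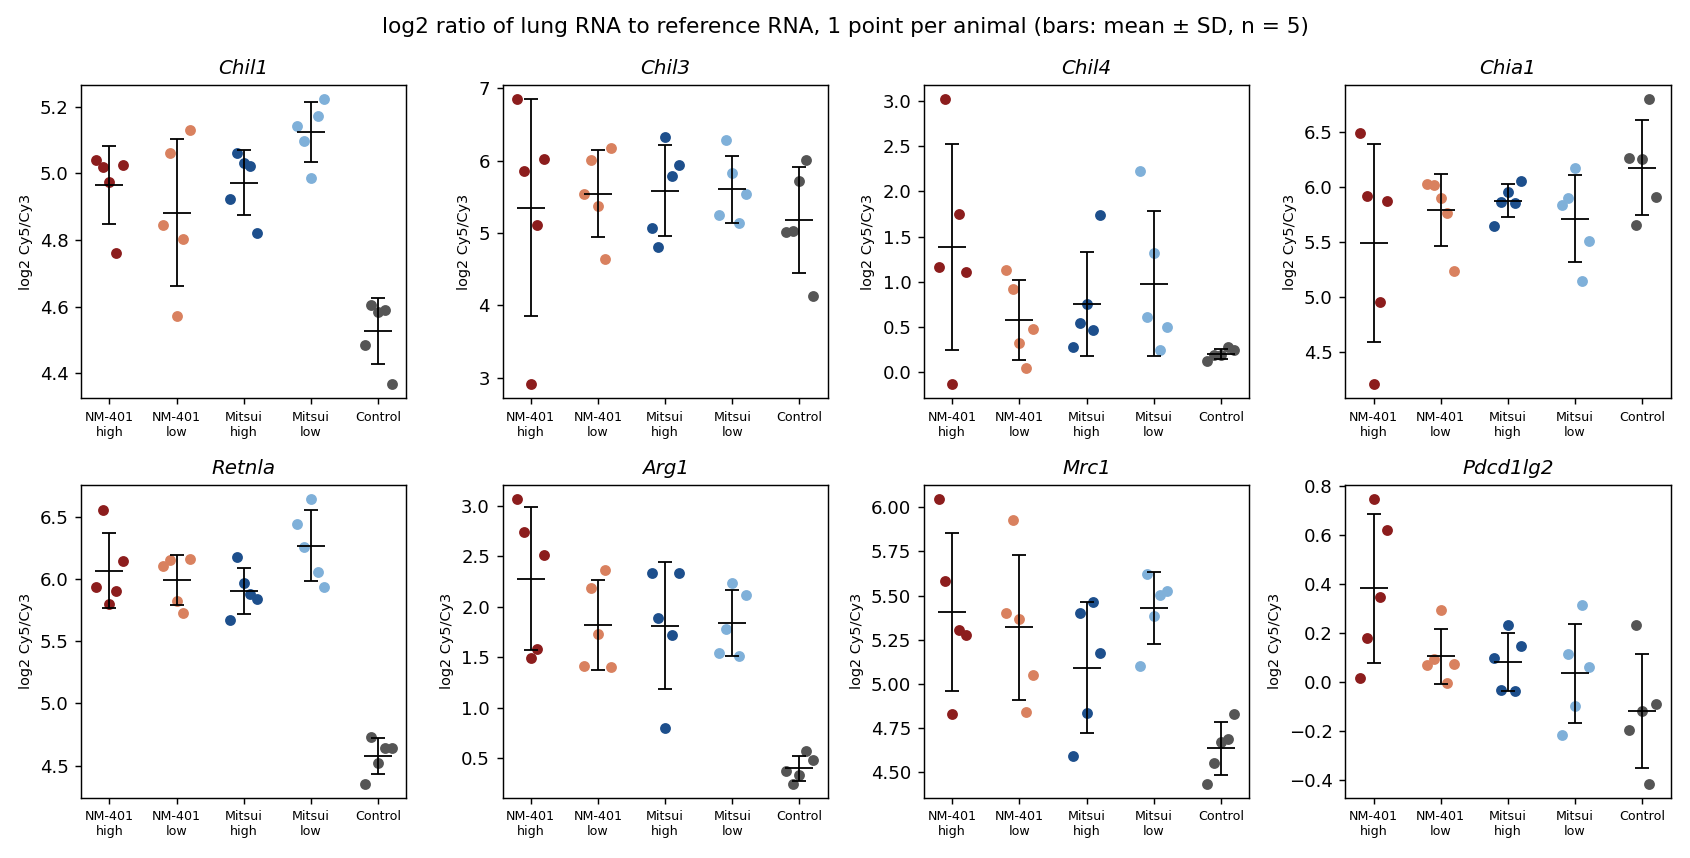
Log2 ratio of 8 members in each of 25 lungs, with group mean and SD (n = 5) as black bars, in NM-401 high, NM-401 low, Mitsui high, Mitsui low and control. For Retnla and Arg1 all 20 exposed lungs lie above the 5 controls, for Chil3 the groups overlap, and for Chil4 the controls lie between 0.13 and 0.27 while exposed lungs reach 3.02.

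The members whose exposed and control lungs did not overlap were Chil1, Retnla and Arg1 in NM-401 high (3 of 8, against 22.5% of all features in either direction), Retnla, Arg1 and Mrc1 in NM-401 low (3 of 8, against 11.6%), Chil1, Chil4, Retnla and Arg1 in Mitsui high (4 of 8, against 14.6%) and Chil1, Retnla, Arg1 and Mrc1 in Mitsui low (4 of 8, against 16.1%). The lowest Mitsui high value of Chil4 was 0.28 and the highest control value 0.27, both from spots not well above background, so these do not separate the groups for Chil4. Arg1 and Chil4 passed the filter through exposed groups alone, so their place in these counts was in part a condition of their being tested.

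Between doses and materials limma called none of the 8 members, and in each of 5 comparisons 1 member had an unadjusted p under 0.05. For NM-401 high against low 0 of 8 were called, where 3.84% of all features were called and 18.3% had an unadjusted p under 0.05. That 1 member was Pdcd1lg2, at 0.28 (95% interval 0.02 to 0.53, adjusted p = 0.24). For Mitsui high against low 0 of 8 were called (0% of all features, 5.42% at the unadjusted threshold) and Retnla had -0.36 (-0.65 to -0.07, adjusted p = 0.73). For NM-401 high against Mitsui high 0 of 8 were called (0.793% of all, 17.2% unadjusted) and Pdcd1lg2 had 0.30 (0.04 to 0.56, adjusted p = 0.21). For NM-401 low against Mitsui low 0 of 8 were called (0% of all, 5.61% unadjusted) and Chil1 had -0.24 (-0.42 to -0.06, adjusted p = 0.72). The dose step of NM-401 minus that of Mitsui gave 0 of 8 (0.0305% of all, 12.7% unadjusted), with Retnla at 0.44 (0.03 to 0.84, adjusted p = 0.35). The intervals for Retnla between doses of NM-401 (-0.21 to 0.36) and for Arg1 (-0.13 to 1.06) do not show that the doses acted alike.

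For Retnla, whose Cy3 signal differed between exposed and control lungs, the dose and material contrasts were also read from Cy5 alone. They were on the log2 scale 0.15 ± 0.27 (SE) for NM-401 high minus low, -0.07 ± 0.27 for Mitsui high minus low and 0.10 ± 0.27 for NM-401 high minus Mitsui high, none of them called by limma. The Cy3 signal of Chil1 also differed between exposed and control lungs. On Cy5 alone limma called 0 of the 8 members, Chil1 and Retnla included, in each of the 5 dose and material comparisons.

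Upstream of these genes, the cytokine genes Il4, Il13, Il5 and Il25 were not kept by the filter. Il13 was well above background in 1 of 5 NM-401 high lungs and in 0 of 5 of each other group, controls included, and Il4 in 2, 2, 0 and 0 lungs of the exposed groups and 1 control. In the list of IL-4 and IL-13 receptors and signalling genes 8 of 18 measured members rose and 4 fell in NM-401 high. The counts were 5 and 1 in NM-401 low, 5 and 3 in Mitsui high, and 3 and 4 in Mitsui low. Of all features 34.8% were called in either direction in NM-401 high, 16.9% in NM-401 low, 23.7% in Mitsui high and 20.9% in Mitsui low. The receptor gene Il4ra had 0.13 ± 0.13 in NM-401 high (adjusted p = 0.45), -0.13 in NM-401 low, -0.05 in Mitsui high and -0.10 in Mitsui low. Stat6 rose by 0.23 ± 0.07 in NM-401 high and 0.22 ± 0.07 in Mitsui high. Il33, an alarmin that drives type 2 responses, rose by 2.03 ± 0.20, 1.18 ± 0.20, 1.32 ± 0.20 and 1.59 ± 0.20 in NM-401 high, NM-401 low, Mitsui high and Mitsui low, and Il1rl1, its receptor gene, by 0.91 ± 0.14, 0.55 ± 0.14, 0.63 ± 0.14 and 0.71 ± 0.14. Crlf2, a chain of the TSLP receptor, rose by 1.15 ± 0.16 and Klf4, a transcription factor linked to alternative activation, fell by 1.36 ± 0.14 in NM-401 high.

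Of 24 other measured genes of alternative activation 14 rose and 4 fell in NM-401 high, with a median of 0.51, against the same 34.8% of all features. The counts were 9 higher and 2 lower in NM-401 low, 11 and 2 in Mitsui high, and 11 and 3 in Mitsui low. In these 3 groups 16.9%, 23.7% and 20.9% of all features were called in either direction. Mmp12, the macrophage elastase gene, rose by 3.81 ± 0.26, Msr1, a scavenger receptor, by 3.37 ± 0.30, Igf1, a growth factor, by 2.99 ± 0.25 and Itln1, a lectin of goblet cells, by 2.62 ± 0.84 in NM-401 high. Mmp12 and Itln1 were well above background in all 20 exposed lungs and in 1 of 5 controls, so they passed the filter through exposed groups alone and their controls lay near background. Il1rn, Alox15 and Slc7a2 of the same list also passed it through exposed groups alone, with 1, 1 and 3 of 5 controls well above background. Genes of classical activation moved as well, with 10 of 16 higher and none lower in NM-401 high, against 18.4% of all features called higher. The counts higher and lower were 8 and 0 in NM-401 low, 7 and 0 in Mitsui high, and 5 and 1 in Mitsui low. In these 3 groups 8.95%, 12.7% and 10.6% of all features were called higher. In NM-401 high the interferon-induced chemokine genes Cxcl10 and Cxcl9 rose by 3.44 ± 0.60 and 2.04 ± 0.41, Il6 by 2.16 ± 0.21 and the Fc receptor gene Fcgr1 by 1.99 ± 0.37. Il6 and Cxcl9 also passed the filter through exposed groups alone, with 2 and 3 of 5 controls well above background. Whether the 2 lists differ in their change was not tested.

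Of the other chitinase-family genes, 2 of 3 measured rose in NM-401 high, where 18.4% of all features were called higher. They were Chid1, with 0.36 ± 0.11, and Ovgp1, an oviduct glycoprotein, with 0.30 ± 0.11. Of the other resistin genes 1 of 3 rose, against the same 18.4%, and it was Retnlb, with 0.55 ± 0.15. Retnlb was well above background in 4 NM-401 high lungs and 0 controls and passed the filter through NM-401 high alone. Retnlg had 0.80 ± 0.32 (adjusted p = 0.057) and Retn -0.96 ± 0.60 (0.24). Among mannose receptor relatives and C-type lectins 5 of 8 rose in NM-401 high, against 18.4% of all features called higher, with Clec4d at 2.94 ± 0.26, Clec4e at 2.20 ± 0.19, Mgl2 at 0.76 ± 0.24 and Clec4n at 0.70 ± 0.08.

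**Figure D5:**
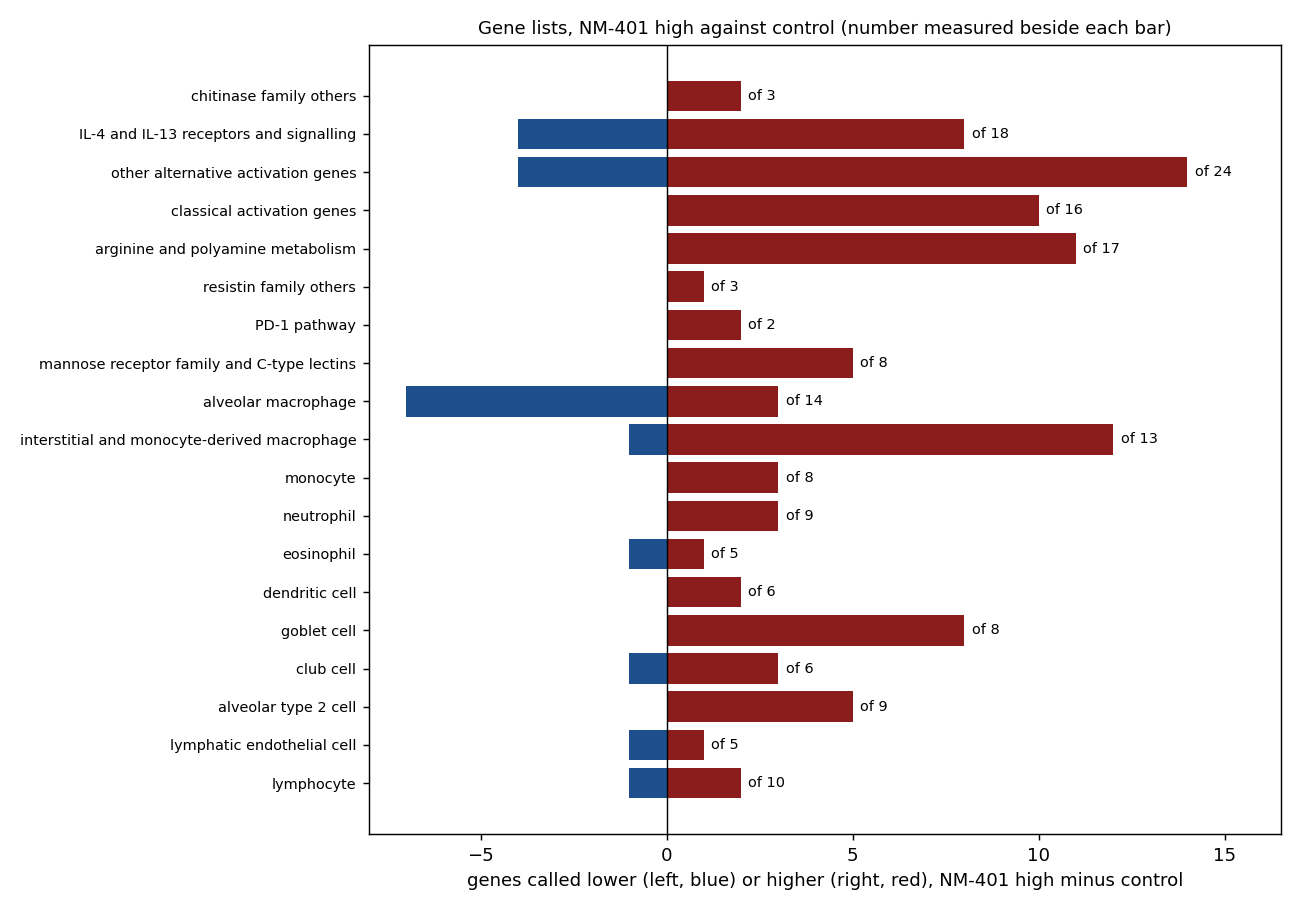
Number of genes called higher (right, red) and lower (left, blue) in NM-401 high against control for 8 lists of related genes and 11 lists of cell type markers, with the number measured beside each bar. Interstitial and monocyte-derived macrophage markers have 12 of 13 higher and 1 lower, alveolar macrophage markers 3 of 14 higher and 7 lower. Of all features 18.4% were called higher and 34.8% in either direction. The lists were chosen with earlier results of these data known.

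Markers of the cells that could carry these genes moved with exposure. Over all features 34.8% were called in either direction in NM-401 high and 18.4% were called higher. The marker lists were chosen with earlier results of these data known, so their counts are a description and not a test. Of 13 interstitial and monocyte-derived macrophage markers 12 were higher in NM-401 high and 1 (Lyve1, at -1.31 ± 0.26) lower, led by Gpnmb at 5.05 ± 0.35, Trem2 at 4.65 ± 0.29 and Ms4a7 at 4.45 ± 0.32. Their mean ratio per animal was 2.87 to 3.41 in NM-401 high, 2.17 to 2.96 in NM-401 low, 2.24 to 2.91 in Mitsui high and 2.56 to 2.90 in Mitsui low lungs, against 1.03 to 1.25 in control lungs. Of 14 alveolar macrophage markers 3 were higher and 7 lower in NM-401 high. Atp6v0d2, a proton pump subunit, had 2.28 ± 0.18, Krt79 -2.16 ± 0.53, Cidec -2.06 ± 0.51 and Siglecf -0.87 ± 0.19, and the mean ratio of the list overlapped in all groups. It was 3.10 to 4.35 in NM-401 high, 3.81 to 4.07 in NM-401 low, 3.63 to 3.92 in Mitsui high and 3.54 to 4.44 in Mitsui low, against 3.67 to 4.17 in control lungs. All 8 measured goblet cell markers were higher in NM-401 high, and Clca1 was well above background in 20 of 20 exposed lungs and 0 of 5 controls. Foxa3, another of the 8, was well above background in 5 of 5 NM-401 high lungs and 1 of 5 controls. Clca1 and Foxa3 passed the filter through exposed groups alone, so that a rise was in part a condition of their being measured. The goblet cell mean was 3.00 to 4.35, 1.93 to 3.39, 3.10 to 3.86 and 2.61 to 3.90 in NM-401 high, NM-401 low, Mitsui high and Mitsui low, against 0.73 to 1.22 in control lungs. Of 5 measured eosinophil markers 1 rose (Ccr3, 0.25 ± 0.09) and 1 fell (Siglecf) in NM-401 high, near the share of all features called. Ccr3 was well above background in 5 NM-401 high lungs and 1 control and passed the filter through NM-401 high alone, while Epx was above background in no lung and Prg2 in 3, 1, 2, 0 and, for controls, 1 of 5. The part of these cell types in the members' results was not tested.

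Counts for the remaining marker lists in NM-401 high were 3 higher of 8 for monocytes, 3 of 9 for neutrophils, 2 of 6 for dendritic cells, 3 higher and 1 lower of 6 for club cells, 1 and 1 of 5 for lymphatic endothelium, and 2 and 1 of 10 for lymphocytes. Over all features 34.8% were called in either direction there and 18.4% higher, and the counts called in either direction, other than that for club cells, lie near the share of all features. Krt15 of the club cell list passed the filter through exposed groups alone. By name the largest rises were Fcgr4 at 1.81 ± 0.20, Ltf at 3.48 ± 0.37, Batf3 at 1.19 ± 0.15, Reg3g at 2.44 ± 0.79, Pdpn at 0.45 ± 0.15 and Jchain at 2.25 ± 0.43.

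The features whose ratio ran most like that of a member over the 25 animals are given as a description, since such animals share their group and slide. For Retnla they were Tmc5 (r = 0.93), Cp (0.92) and the mucin gene Muc5b (0.92), and for Arg1 the fibrinogen gene Fgg (0.92), Fgl1 (0.91) and Urah (0.90). For Chil1 they were the chemokine gene Ccl6 (0.89), Lrg1 (0.88) and the surfactant gene Sftpa1 (0.87), and for Chil4 Scin (0.87), Nccrp1 (0.87) and Capn9 (0.83). For Pdcd1lg2 they were Calhm6 (0.87), Epsti1 (0.84) and Cxcl9 (0.82), and for Mrc1 Tmem254a (0.79), Scamp1 (0.79) and Gclc (0.79). Chia1 ran with Amhr2 (0.76) and Wif1 (0.76), and Chil3 with Rpl41, Cox8a and Ogdh (0.72, 0.72 and 0.71). The 3 features nearest to Chil3 had NM-401 high differences of 0.03, 0.07 and -0.02.

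The normalisation of each array bears on several of these calls. With the ratios centred on the array median in place of loess, 2 of 8 members were called in NM-401 high (Arg1 and Pdcd1lg2), 0 in NM-401 low, 1 in Mitsui high (Arg1) and 0 in Mitsui low, while calls over all features were 1064, 62, 121 and 74 in place of 7976, 3890, 5448 and 4808. In that setting Chil1 had 0.43, -0.08, -0.03 and 0.09 in NM-401 high, NM-401 low, Mitsui high and Mitsui low, called in none. There Retnla had 1.23, 0.70, 0.56 and 0.90 in NM-401 high, NM-401 low, Mitsui high and Mitsui low, with limma adjusted p of 0.099, 0.99, 0.94 and 0.76. With the log ratios of Feature Extraction, which subtract background, Retnla had 0.82, 0.74, 0.75 and 1.01 and Arg1 2.87, 2.43, 2.50 and 2.94, called in all 4.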

How the data were processed

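Lung RNA of 25 mice in 5 groups of 5 was measured on 2-colour Agilent arrays with a common reference RNA. Spot intensities were read with Feature Extraction 11.0.1.1, per the file headers, which also give log10 ratios of Cy5 over Cy3 and well-above-background calls. The authors also deposited a table of log2 ratios, whose method is not given in the sources used here. It correlated with the ratios computed here at 0.993 to 0.999 per array, with the same direction.

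Median signals were background-corrected (normexp, offset 50) and loess-normalised within arrays in limma 3.58.1 (R 4.3.3). Spots called outliers were left out (0.461%). Probes whose Cy5 cleared background in 4 or more animals of any group were kept (30466 of 55681 probes), and the brightest probe stood for a gene. The 22950 features were fitted with 1 mean per group over all animals, and p-values were adjusted by Benjamini-Hochberg over all features, with a threshold of 0.05. On simulated data for NM-401 high against control (22950 features), 78% of log2 changes of 0.5 and 98% of changes of 1 were recovered, with 5.10% false calls.

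The rule for names took all 9 members, up to 4 genes per list with the largest change among those called in NM-401 high, Nos2, Il4ra, Stat6, Cd274, Arg2, Retnlg, Scgb1a1, Siglecf and Prg2 wherever measured, and the 3 features most correlated with each kept member. For Chia1, 1 of these features is not reported here. Il4, Il13, Il5, Il25, Epx and Retn were named in addition, after their values were seen. Foxa3, Il1rn, Alox15, Slc7a2 and Krt15 were named for how they passed the filter. Members and lists were chosen with earlier results of these data known. Alternatives changed background, normalisation, filter, probe choice, blocks and animals. The fits on Cy5 or Cy3 alone were added after the data were seen. Sequences came from RefSeq (GRCm38.p6). Same-numbered animals of different groups had a median correlation of -0.00 (-0.38 to 0.41), so the numbers were not taken to pair animals.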

Additional observations from a re-analysis of the deposited data

Results flagged for a closer look

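Cy3 is the channel of the reference RNA and belongs to no comparison of the study, yet it was higher on arrays of exposed lungs than on arrays of controls for 2 members. On the log2 scale the Cy3 difference of Retnla was 4.02 in NM-401 high, 3.95 in NM-401 low, 4.09 in Mitsui high and 3.92 in Mitsui low. That of Chil1 was 1.77, 1.49, 1.54 and 1.49 in the same groups. The cause was not tested.

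The Chil1 ratio of NM-401 high animal 4 was 4.76, and the next lowest animal of that group had 4.97, a gap of 0.76 of the group's range. It was the 1 such animal among 40 sets of 5, and chance alone marks about 1 in 20.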

How the results depend on the processing

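The number of members called in the 4 exposures was 2 in NM-401 high, 0 in NM-401 low, 1 in Mitsui high and 0 in Mitsui low with median centring in place of loess, against 6, 4, 3 and 4. The cause was not tested. Leaving out 1 animal gave 5 to 7, 3 to 4, 3 to 4 and 4, and the 5 dose and material comparisons gave 0 under every alternative run. With the replicate number as a block the counts were 6, 4, 3 and 4, and with slide as a block they were 6, 4, 3 and 4; in the block on the replicate number 5 of 25 animals correlated best with their own number. Single members changed sign under these alternatives. With median centring Chil1 had -0.0784 in NM-401 low and -0.0314 in Mitsui high. With Feature Extraction ratios Chia1 had 0.23 in Mitsui low. Chil3 in NM-401 high had -0.0325 with array column as a block, and leaving out 1 animal gave -0.20 to 0.78. Chil1 in NM-401 low had -0.0158 within slide 4. Members that were not called changed sign within slides too. Chil3 had -0.19 and -0.44 within slides 1 and 4 in NM-401 high, and within slide 4 -0.64 in NM-401 low and -1.20 in Mitsui high. Chia1 had 0.24 within slide 3 in NM-401 high, and within slide 2 0.37 in NM-401 low and 0.10 in Mitsui high. Chil4 had -0.14 within slide 1 in NM-401 low. Pdcd1lg2 had within slide 2 -0.15 in NM-401 low and -0.20 in Mitsui high, and within slide 1 -0.01 in Mitsui low. NM-401 high lies in array columns 1 and 2 alone, so column and group are partly confounded. Chit1 could not be fitted at this signal over background, and Chil4 and Arg1 lay near background in controls. Pdcd1lg2 was about as dim as Arg1 there, with Cy5 signals of 107 to 148.5 against 93 to 142.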
